A study of Mus musculus with 2 samples.

Results

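The genes described here make and use UDP-GlcNAc, the sugar nucleotide on which the Gne enzyme acts. They were 10 genes chosen by symbol for their place in this pathway (Gfpt1, Gfpt2, Gnpnat1, Pgm3, Uap1, Ogt, Mgea5, Renbp, Nagk and Amdhd2), of 21829 in the expression data, and all 10 were found by exact symbol. Mgea5 is the older symbol of Oga. The data were 2 RNA-seq libraries of C2C12, an immortalised mouse myoblast line. One library came from WT cells. The other came from KO cells (labelled GNE KO), in which Gne had been disrupted by CRISPR–Cas9. Both lines were grown in serum-containing medium with gentamicin and no other treatment is stated. The KO cells were expanded from single-cell clones, so that the KO line stands for a clone and not for a pool of edited cells.

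The hexosamine pathway takes fructose phosphate from glycolysis, an amino group from glutamine, an acetyl group from acetyl-CoA and uridine from UTP, and joins them into UDP-GlcNAc. Cells spend UDP-GlcNAc on N-glycans, proteoglycans, hyaluronan and GPI anchors. They also spend it on O-GlcNAc, a single sugar placed on and removed from nuclear and cytosolic proteins. In the sialic acid branch, Gne converts UDP-GlcNAc to ManNAc and phosphorylates it, so that UDP-GlcNAc is the point at which both routes meet.

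Of the 10 genes, Gfpt1, the entry enzyme, was the one that differed most between the libraries, at 15.4 FPKM in WT and 25.7 FPKM in KO, 1.66 times as high. Mgea5, which removes O-GlcNAc, came next, at 16.3 FPKM in WT and 22.2 FPKM in KO, 1.36 times as high. The other 7 genes with a value above 0 lay between 0.875 and 1.13 times their WT value, and Gfpt2, the paralog of Gfpt1, was listed at 0 in both libraries. With 1 library per line there is no replicate error, no difference was tested, and all folds below describe a pair of libraries. FPKM, fragments per kilobase and per unit of depth, is a scale corrected for length, so that levels can also be compared between genes.

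The promoters of these 3 genes are printed because Gfpt1 and Mgea5 had the largest differences and because Gfpt2 is the paralog without signal. Each runs 5′ to 3′ on the strand of its gene, from 250 bases before the start site to 50 bases after it, from RefSeq on GRCm38.p6. They lie at chr6:87042596-87042895 on the plus strand for Gfpt1, chr19:45783504-45783803 on the minus strand for Mgea5 (listed as Oga) and chr11:49793905-49794204 on the plus strand for Gfpt2. Capitals mark GC boxes (GGGCGG on either strand) and CCAAT boxes (CCAAT on either strand).
Gfpt1: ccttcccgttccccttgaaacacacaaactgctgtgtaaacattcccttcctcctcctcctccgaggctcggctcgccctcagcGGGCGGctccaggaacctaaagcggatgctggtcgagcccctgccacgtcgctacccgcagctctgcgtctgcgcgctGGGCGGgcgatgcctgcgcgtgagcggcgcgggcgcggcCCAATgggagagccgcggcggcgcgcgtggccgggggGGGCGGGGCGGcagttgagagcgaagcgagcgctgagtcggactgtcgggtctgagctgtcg
Mgea5: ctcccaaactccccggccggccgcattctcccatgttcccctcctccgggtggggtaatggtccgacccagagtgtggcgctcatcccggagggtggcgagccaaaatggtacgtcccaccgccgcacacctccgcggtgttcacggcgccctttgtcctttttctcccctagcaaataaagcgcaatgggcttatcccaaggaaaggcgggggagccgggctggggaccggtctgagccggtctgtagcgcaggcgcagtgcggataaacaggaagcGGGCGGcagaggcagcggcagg
Gfpt2: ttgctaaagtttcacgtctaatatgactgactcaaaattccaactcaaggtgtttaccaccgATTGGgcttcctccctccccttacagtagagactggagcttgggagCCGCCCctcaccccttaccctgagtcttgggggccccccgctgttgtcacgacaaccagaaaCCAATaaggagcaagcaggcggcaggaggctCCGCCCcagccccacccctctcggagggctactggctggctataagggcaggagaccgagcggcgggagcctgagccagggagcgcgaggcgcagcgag
The Gfpt1 promoter had 38 CpG dinucleotides, more than 95.0% of the 32851 promoters of the table, whose median was 7. It held 4 GC boxes, of which the last pair overlap just before the start site, and 1 CCAAT box. The Mgea5 promoter had 26 CpG dinucleotides and a single GC box, which lies after the start site. The Gfpt2 promoter had 15 CpG dinucleotides with 2 GC boxes and 2 CCAAT boxes. Of the 10 genes, 9 had a promoter in the table (10 promoters, since Ogt had 2), and all 9 held a GC box, which 35.7% of all promoters hold. That share counts promoters and not genes. The lowest CpG count of the 10 promoters was 8, in Renbp, above the median of 7, and the shares were not matched for base content. A CCAAT box was found in 5 of the 9, against 37.4% of all promoters. No promoter of the 9 genes held a cyclic AMP response element (TGACGTCA, in 1.79% of all promoters) or an unfolded protein response element (TGACGTGG, in 0.676%), which says only that these letters are not in the windows. An E-box (CACGTG), present in 7.15% of all promoters, was found in Amdhd2, which had 3, and in no other of the 9. These are matches of letters in a fixed window, and no binding was measured.

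The values summed to 568543 in WT and 574253 in KO, and the number of reads is unknown. Values were used as deposited. Among 406 genes with low values the KO to WT ratio met most often was 1.13, shared by 28 of them in its bin, and whether it comes from depth was not tested. Gne itself was at 6.67 FPKM in WT and 7.34 FPKM in KO, so its RNA does not check the KO label. Of 9 myoblast markers 7 passed a mean of 1 FPKM. Of these, 4 were more than 2-fold lower and 1 more than 2-fold higher in KO, against 3.43% and 2.84% of all genes that passed. The sum over all 9 markers was 278 FPKM in WT and 105 FPKM in KO. Myod1 went from 59.97 FPKM to a listed 0, and Pax7 was listed at 0 in both libraries. Higher in KO were 2 of the 7, Myf5 (9.14 FPKM in WT, 20.3 FPKM in KO) and Vcam1 (32.1 and 51.3 FPKM). Of 8 fibroblast markers 2 passed, none beyond 2-fold, with sums of 209.6 and 160.3 FPKM carried by Ly6a, which was lower in KO. Pdgfra, which also passed, was at 10.8 FPKM in WT and 12.3 FPKM in KO. Dcn, which did not pass, was at 0.272 and 1.68 FPKM, while Thy1, Lum and Dpp4 were listed at 0 in both. Of 5 macrophage markers 2 passed, Cd14 (19.6 FPKM in WT, 18.4 FPKM in KO) and Cd68 (2.85 and 1.06 FPKM). Their sum over all 5 was 22.5 FPKM in WT and 19.6 FPKM in KO, with Ptprc and Adgre1 at 0 in both. None of 5 endothelial markers passed. The part of these marker differences in the values of the hexosamine genes was not tested, and fewer cells of a type and less RNA per cell cannot be told apart.

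Each fold change is given as log2((KO + 1)/(WT + 1)), which shrinks the difference of genes with low values. The filter kept the 10542 genes whose mean over both libraries reached 1 FPKM. Of the 10 genes 9 passed this filter, and Gfpt2 did not. None of the 9 was more than 2-fold higher or lower in KO, against 6.27% of all genes past the filter in either direction, 2.84% higher and 3.43% lower. Their median log2 fold change was -0.03, beside 0.0061 for all genes, and its sign changed, to 0.0077, when the median of each gene's neighbours was subtracted. The values of 4 genes were higher in KO and those of 5 lower, and 7 of the 9 fell inside the interquartile range of all genes, from -0.21 to 0.23.

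**Figure D1:**
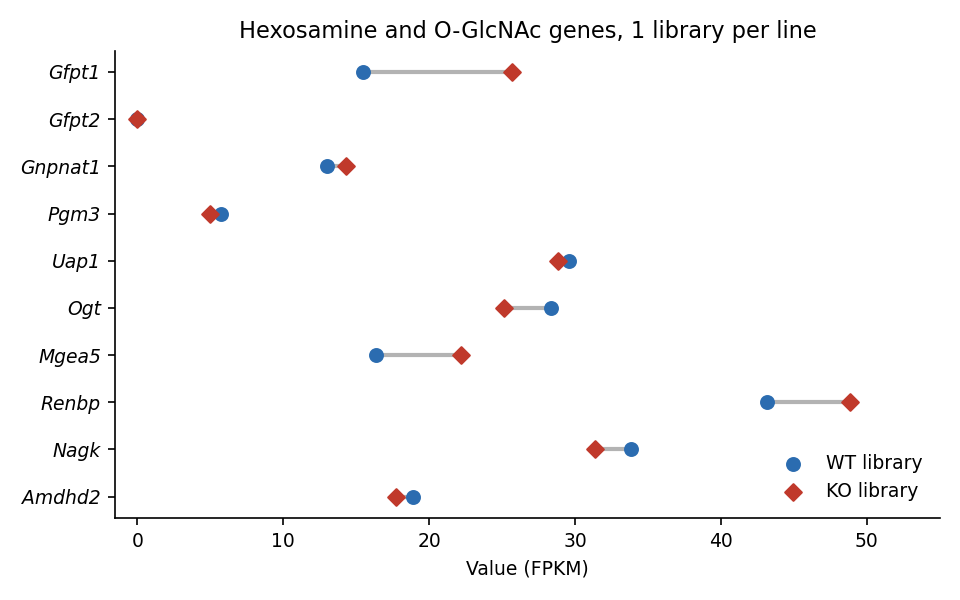
Values in FPKM (horizontal axis) of the 10 genes (vertical axis) in the WT library (circles) and the KO library (diamonds), joined by a line, with 1 library per line and no error bars. The longest line is that of Gfpt1, from 15.4 to 25.7 FPKM, and Gfpt2 sits at 0 in both libraries.

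Gfpt1 and Gfpt2 encode glutamine–fructose-6-phosphate transaminase, the enzyme that commits sugar to the pathway and is held back by its end product. Gfpt1 (ENSMUSG00000029992) spans chr6:87019801-87069179 on the plus strand of GRCm39. Its log2 fold change was 0.70. Of all genes past the filter, 5.50% had a log2 fold change at least as high, and 11.3% one at least as large in either direction. Among the 7051 genes whose mean lay between 5 and 60 FPKM, the band that holds the 9 genes, 8.71% changed by as much. In the order of levels among the 10 genes it went from the 7th place in WT to the 4th in KO. At 15.4 FPKM it lay above 50.2% of genes past the filter in WT, and at 25.7 FPKM above 66.3% in KO.

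Gfpt2 (ENSMUSG00000020363, chr11:49684950-49729456, plus strand, GRCm39) gave no value above 0 in either library, so that neither a fold change nor a Gfpt1 to Gfpt2 ratio can be given. Of 83 genes matched by a ribosomal protein symbol, 2 were listed at 0 in both libraries. These were Rpl10l and Rpl39l, copies of restricted expression named here after their values were seen. Rpl3l was at 0 in WT and at 0.048 FPKM in KO. This count does not settle whether the listed 0 of Gfpt2 means an absence of its RNA. The canonical transcripts of Gfpt1 and Gfpt2, both with 19 exons in the GENCODE vM39 annotation, aligned over 2062 bases with 71.9% identity. Gfpt1 was thus the single entry gene with a value in these libraries.

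The 3 steps that follow differed little between the libraries. Gnpnat1, which adds the acetyl group, was at 13.0 FPKM in WT and 14.3 FPKM in KO, a log2 fold change of 0.12. Pgm3, the mutase that moves the phosphate, was the lowest of the 9 detected genes, at 5.73 FPKM in WT and 5.01 FPKM in KO, a log2 fold change of -0.16. Uap1, the pyrophosphorylase that joins the sugar to uridine, was at 29.6 FPKM in WT and 28.9 FPKM in KO, a log2 fold change of -0.03. Changes at least as large in size as that of Uap1 were seen in 91.0% of all genes, as that of Gnpnat1 in 69.6% and as that of Pgm3 in 61.2%. In WT the entry gene Gfpt1 stood at 0.522 times the level of Uap1, and in KO at 0.889 times, a comparison added after the values were seen. The Pgm3 to Uap1 ratio, also added, was 0.194 in WT and 0.174 in KO.

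Ogt, the transferase that places O-GlcNAc, and Mgea5, the hydrolase that takes it off, differed in opposite directions. Ogt was at 28.4 FPKM in WT and 25.1 FPKM in KO, a log2 fold change of -0.17, and changes of that size or more were seen in 59.6% of genes. Mgea5 (ENSMUSG00000025220, chr19:45738688-45772276, minus strand, GRCm39) had a log2 fold change of 0.42, at or above which lay 13.4% of genes, with 24.7% as large in either direction. The Ogt to Mgea5 ratio was thus 1.74 in WT and 1.13 in KO. Transferase RNA stood above hydrolase RNA in both libraries, by a smaller margin in KO. A ratio within a library does not depend on how the libraries are scaled.

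The last 3 genes handle free or phosphorylated GlcNAc. Renbp, an epimerase that interconverts GlcNAc and ManNAc and is also known as a renin-binding protein, had the highest level of the 10 in both libraries, at 43.1 FPKM in WT and 48.9 FPKM in KO, a log2 fold change of 0.18. Nagk, the kinase that returns salvaged GlcNAc to the pathway, was next in both, at 33.8 FPKM in WT and 31.4 FPKM in KO, with a log2 fold change of -0.10. Amdhd2, a deacetylase that acts in reverse on GlcNAc phosphate, was at 18.9 FPKM in WT and 17.7 FPKM in KO, with a log2 fold change of -0.09. The level of Renbp was 6.46 times that of Gne in WT and 6.66 times in KO. Gfpt1 was below Amdhd2 in WT, at 0.817 times its level, and above it in KO, at 1.45 times, which was compared after the values were seen.

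The 10 genes together made up 204.3 FPKM in WT and 219.1 FPKM in KO, or 0.0359% and 0.0381% of all values. The first 3 places (Renbp, Nagk, Uap1) and the places of Mgea5, Gnpnat1, Pgm3 and Gfpt2 were the same in both libraries. Of the places that differed, Gfpt1 went above Ogt, which went from the 4th place to the 5th. Amdhd2 went from the 5th place to the 7th, since both Gfpt1 and Mgea5 went above it. Mgea5 kept its place because Gfpt1 went above it as well. In KO, Gfpt1 at 25.7 FPKM and Ogt at 25.1 FPKM were close, and with no replicate spread their order cannot be settled.

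**Figure D2:**
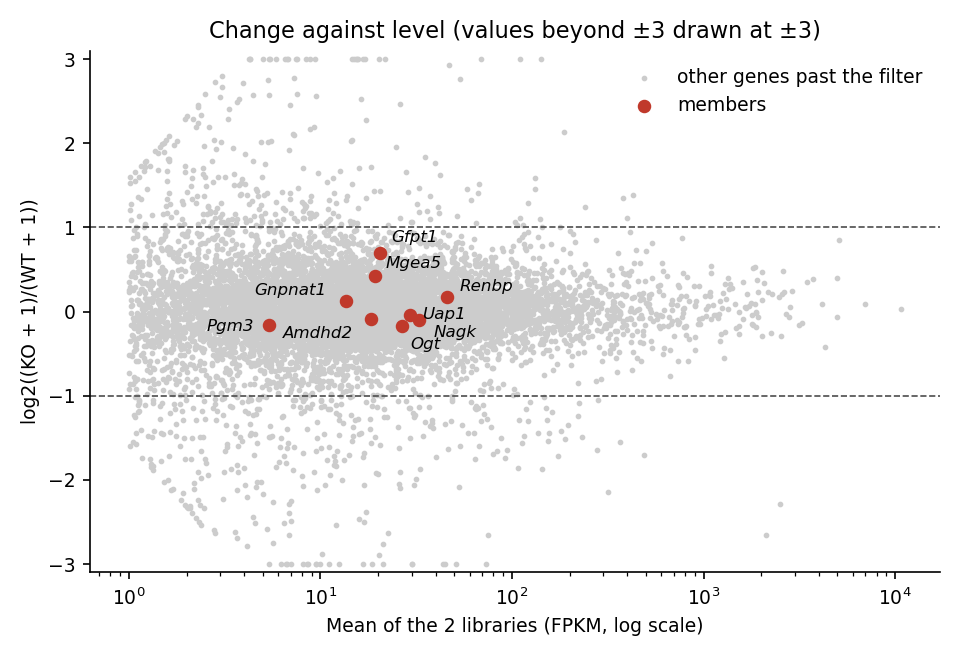
Vertical axis, log2((KO + 1)/(WT + 1)), against the mean of both libraries in FPKM (horizontal axis, log scale) for all genes past the filter (grey) and the 9 detected genes of the group (red), with dashed lines at 2-fold. The 9 red points lie between the dashed lines, with Gfpt1 at 0.70 and Mgea5 at 0.42 as the highest.

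Since neighbouring genes on some chromosomes differ together in these libraries, each gene was set beside the genes past the filter within 5 Mb. The 82 neighbours of Gfpt1 had a median log2 fold change of -0.06, and 5 of them had a value above that of Gfpt1. Among these 5 were genes close to it, named after their values were seen. Antxr1, 0.09 Mb away, was at 0.70 and Aak1, 0.19 Mb away on the other side, at 0.85. Nfu1, nearer still at 0.03 Mb, was at -0.28. Nagk lies 3.25 Mb from Gfpt1 on the same chromosome and had a log2 fold change of -0.10. The 77 neighbours of Mgea5 had a median of -0.05, and 3 of them lay above Mgea5. After subtraction of the neighbours' median, Gfpt1 was at 0.76 and Mgea5 at 0.47. Both values were thus as large beside the 5 Mb median as without it. A median over 5 Mb does not describe the closest genes, such as Antxr1 and Aak1 for Gfpt1. The neighbours' medians of the other 7 genes ran from -0.09 for Amdhd2 to 0.21 for Uap1. Subtraction took Uap1 to -0.25, with 42 of its 54 neighbours above it, and Amdhd2 to 0.0077.

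**Figure D3:**
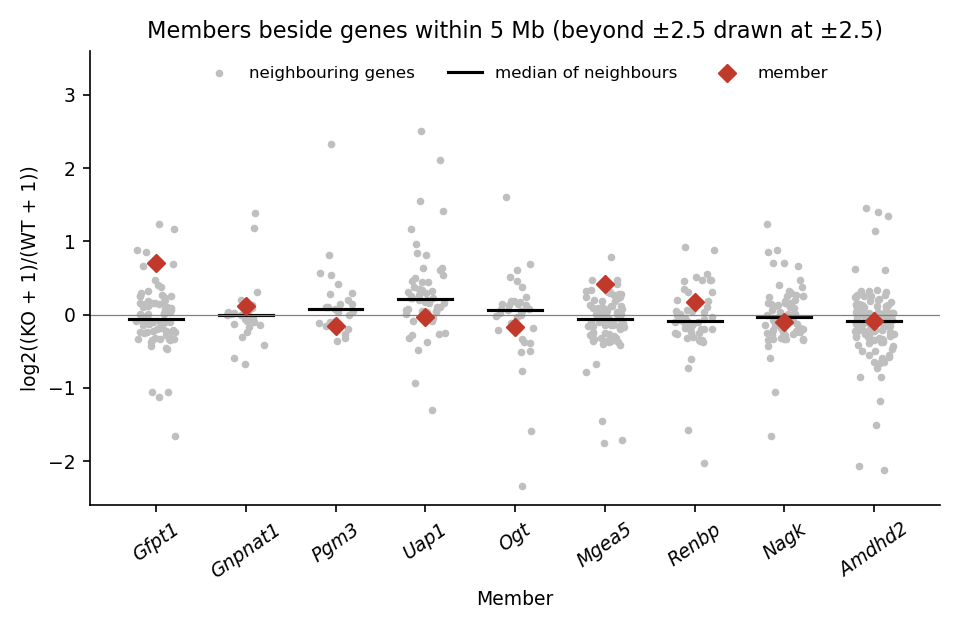
Vertical axis, log2((KO + 1)/(WT + 1)) of each of the 9 detected genes (diamonds), of the genes within 5 Mb (grey points) and of their median (black line), by gene (horizontal axis). Gfpt1 and Mgea5 lie above nearly all of their neighbours, with 5 of 82 and 3 of 77 higher.

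Reads shared with other genes limit some of these values. In GENCODE vM39, which may not be the annotation the authors used, 6 of the 10 genes share exon sequence with another gene or have a near-identical copy, and Gfpt1, Uap1, Ogt and Nagk do not. Exons of Pgm3 overlap those of Dop1a (3.72 FPKM in WT, 4.72 FPKM in KO) and Rwdd2a (0.266 and 0.302 FPKM) on the opposite strand. Gnpnat1 overlaps a gene model on its own strand, Gm55368, which counting by strand would not separate. On the opposite strand it overlaps Styx, which was at 5.96 FPKM in WT and 5.94 FPKM in KO, and it has a processed pseudogene, Gm7623, with 98.8% identity over 338 bases. Mgea5, Amdhd2, Renbp and Gfpt2 each overlap a gene model on the opposite strand, known by a Gm number. Whether strand was used in counting is not given in the sources used here, and the values of these 6 genes are less certain than that of Gfpt1.

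The steps around the group were described by 6 lists chosen by function, with earlier results of these data known. In the sialic acid branch, which starts at Gne, 4 of 6 genes passed the filter and 0 were beyond 2-fold, with a median log2 fold change of 0.06. The range in this branch was narrow, from 0.02 for Nans, the sialic acid phosphate synthase, at 39.1 FPKM in WT and 39.7 FPKM in KO, to 0.12 for Gne. Of 11 genes of substrate entry 9 passed, 5 higher in KO (against 50.7% of all genes) and 4 lower, with a median of 0.23. Against 3.43% of all genes past the filter, 1 of the 9 was more than 2-fold lower. This was Glul, glutamine synthetase, at 68.6 FPKM in WT and 27.3 FPKM in KO, a log2 fold change of -1.30, whose neighbours had a median of 0.24. Hk1, the hexokinase that traps glucose, had the highest log2 fold change of this list, 0.46, at 49.6 FPKM in WT and 68.7 FPKM in KO.

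Of 36 genes that use or carry UDP-GlcNAc, 35 were matched and 30 passed, with 19 higher against 50.7% of all genes, and 11 lower. On the log2(value + 1) scale 0 were beyond 2-fold, and the median was 0.12. The ends of this list by log2 fold change were Pigh, a subunit that starts GPI anchors, at 1.24 FPKM in WT and 2.96 FPKM in KO, and Lfng, a glycosyltransferase that acts on Notch, at 18.5 FPKM in WT and 11.998 FPKM in KO. Their log2 fold changes were 0.82 and -0.58. The plain KO to WT ratio of Pigh was 2.39, and with a pseudocount of 0.1 it counted as more than 2-fold higher. Named after their values were seen, Has2, a hyaluronan synthase, was at 8.01 FPKM in WT and 12.1 FPKM in KO, and Mgat5, which branches N-glycans, at 2.62 and 4.79 FPKM.

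Among 10 genes that recycle GlcNAc from glycans or remove its amino group, 9 passed, 7 of them higher in KO against 50.7% of all genes, and 0 were beyond 2-fold. The median log2 fold change was 0.28, and it was 0.15 after the neighbours' medians were subtracted, 0.16 with a pseudocount of 5 and 0.42 under a filter of 5 FPKM. Hexa, a lysosomal hexosaminidase subunit, had the highest log2 fold change, 0.55, at 67.1 FPKM in WT and 98.5 FPKM in KO, and its neighbours had a median of 0.32. Hexdc, another hexosaminidase, had the lowest log2 fold change, -0.62, at 2.74 FPKM in WT and 1.43 FPKM in KO. The deaminases that run against Gfpt1 are named after their values were seen. Gnpda1 was at 8.76 FPKM in WT and 11.5 FPKM in KO. Gnpda2 was listed at 0 in WT and at 1.93 FPKM in KO, with a mean just below the filter.

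The unfolded protein response includes transcription factors known to act on hexosamine genes. All 10 of its listed genes passed, with 3 higher against 50.7% of all genes, 7 lower and a median of -0.09. Against 3.43% of all genes past the filter, 1 of the 10 was more than 2-fold lower. This was Herpud1, an ER stress protein, at 86.5 FPKM in WT and 31.2 FPKM in KO, a log2 fold change of -1.45. It lies on chromosome 8 among neighbours with a median of -0.97, and 0 genes of the list were more than 2-fold lower after that median was subtracted. Atf6, a stress sensor, had the highest log2 fold change, 0.46, at 11.3 FPKM in WT and 16.0 FPKM in KO. Xbp1, a transcription factor of the list named after its value was seen, was at 57.4 FPKM in WT and 72.9 FPKM in KO. These values do not separate its spliced form. Hspa5, the ER chaperone, also named afterwards, was at 367 FPKM in WT and 361 FPKM in KO. Atf4, a transcription factor of the list named afterwards too, was lower in KO. It was at 413 FPKM in WT and 282 FPKM in KO, a log2 fold change of -0.55. The part of any of these genes in the value of Gfpt1 was not tested.

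Of 11 partners and classic substrates of Ogt 10 passed, with 0 beyond 2-fold, 4 higher against 50.7% of all genes, and 6 lower. Their median was -0.06, which was 0.01 with neighbours subtracted. Sin3a, a corepressor that recruits Ogt, had the highest log2 fold change, 0.45, at 12.8 FPKM in WT and 17.8 FPKM in KO. Tet3, a DNA demethylase that binds Ogt, had the lowest log2 fold change of those that passed, -0.33, at 6.79 FPKM in WT and 5.21 FPKM in KO. Tet1, below the filter and named after its value was seen, was at 1.35 FPKM in WT and 0.19 FPKM in KO. Hcfc1, which Ogt cleaves, was named afterwards and stood at 45.2 FPKM in WT and 41.4 FPKM in KO.

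**Figure D4:**
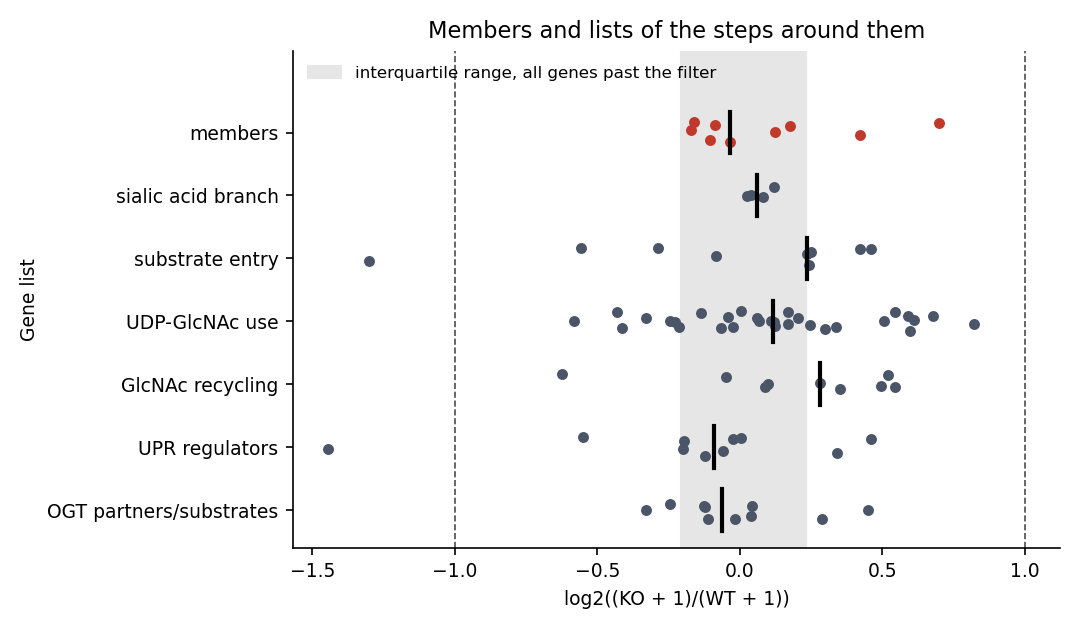
Horizontal axis, log2((KO + 1)/(WT + 1)) of the genes past the filter in the group and in the 6 lists around it (vertical axis), with the list median as a black bar, the interquartile range of all genes shaded and dashed lines at 2-fold. Beyond the dashed lines lie 2 points, Glul at -1.30 and Herpud1 at -1.45.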

How the data were processed

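Polyadenylated RNA of 1 WT and 1 KO library was sequenced. The tables deposited by the authors pair each gene symbol with 1 value, read as FPKM from the totals and decimals since they name no unit. The methods name expected counts and TPM. If they were TPM of part of the genes, the folds given here would be TPM folds, since values were used as deposited. Per the labels, reads were processed with Trim Galore 0.6.6, STAR 2.7.9a and RSEM 1.3.3. The labels name GRCm38 and the methods GRCm39, and the sources also differ on the library kit. Depth in reads is unknown, and counting intervals were left out.

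Of 21853 rows, 24 held a symbol already listed, and only the highest by mean was used. A pseudocount of 1 FPKM, a mean of at least 1 FPKM and a limit of 2-fold were used. The design had allowed for counts, and no count model was fitted. Group members and lists were chosen with earlier results of these data known. Genes were named if they were group members, Gne, beyond 2-fold in a list, or the highest or lowest of a list, and others are marked as chosen after their values were seen. For 10299 of the 10542 genes a GRCm39 position was found in GENCODE vM39, by symbol or RefSeq synonym. Near-identical copies were sought with BLAST+ 2.17.0 at 90% identity over 200 bases. Python 3.11.15, numpy 2.4.6, pandas 2.3.3 and matplotlib 3.10.9 were used. As alternatives, the pseudocount was set to 0.1 or 5, the filter was removed or raised to 5 FPKM, and repeated rows were summed. In further alternatives, both libraries were scaled by the median of ratios, or the neighbours' median was subtracted.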

Additional observations from a re-analysis of the deposited data

How the results depend on the processing

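All 7 alternatives left 0 of the 9 detected genes beyond 2-fold. A log2 fold change or its list median was taken as moved when it shifted by more than the interquartile range of all genes, 0.44, and a count beyond 1.5 times. Most single values of the group are smaller than this limit, which therefore says little about them. Gfpt1 stayed between 0.59 and 0.76 and Mgea5 between 0.35 and 0.47. Uap1 ran from -0.25 to -0.03. With neighbours subtracted Amdhd2, and with it the group's median, changed sign to 0.0077, and the median of the Ogt partners to 0.010. The median of genes that use UDP-GlcNAc, 0.12, was 0.069 without a filter and under a filter of 5 FPKM. With a pseudocount of 5, 102 genes of the whole data were more than 2-fold higher and 176 lower, and under a filter of 5 FPKM, which leaves fewer genes, 145 and 221, against 299 and 362. With a pseudocount of 0.1, 1 gene that uses UDP-GlcNAc, Pigh, was more than 2-fold higher, against 0. Without a filter, 1 GlcNAc recycling gene, Gnpda2, was more than 2-fold higher, against 0. With neighbours subtracted, 0 unfolded protein response genes were more than 2-fold lower, against 1. No paired analysis was possible because each line has 1 library and nothing was tested. For the same reason no replicate could be left out. Apart from the median of ratios, scalings set for counts were not run on FPKM values.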
